A study of Mus musculus with 3 samples.

Results

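The A20 ubiquitin-editing feedback genes are a set of 7 genes chosen by symbol for their known roles: Tnfaip3, Tnip1, Tnip2, Tax1bp1, Cyld, Itch and Rnf11. Each symbol matched 1 gene identifier in the gene table and in both transcript tables, which gave 7 of 55536 annotated genes. They were measured in macrophages grown from C57BL/6J mouse bone marrow, which are primary cells. The only group had 10 min of stimulation with Lipid A at 100 ng/ml, and total RNA-seq with ribosomal depletion was run on its chromatin fraction, in 3 libraries. Lipid A is the stretch of bacterial lipopolysaccharide bound by the receptor TLR4, and chromatin RNA is rich in transcripts that are still being made or spliced. The labels call the libraries biological replicates 1, 2 and 3, with 1 µg, 250 ng and 500 ng of starting RNA, so amount and replicate cannot be told apart. All 3 carry the same donor entry, and age and sex were not collected. The spread between libraries, and each p-value, may therefore be partly technical. No unstimulated library was analysed here, so the levels below are levels after 10 min and not responses.

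A20, the product of Tnfaip3, is an enzyme that removes and adds ubiquitin chains on signalling proteins downstream of TLR4 and tumour necrosis factor receptors, and so restrains NF-kB, the transcription factor that itself drives Tnfaip3. It works with ubiquitin-binding partners (Tnip1 and Tnip2 code for ABIN-1 and ABIN-2), with the adaptor that Tax1bp1 codes for, with the HECT ubiquitin ligase Itch and with the small RING protein Rnf11. Cyld codes for a separate deubiquitinase that trims chains in the same pathways. In macrophages loss of this restraint is known for excess inflammatory signalling.

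The estimated counts on annotated genes were 15698066, 16005795 and 14386725 for replicates 1, 2 and 3. The label of macrophage held against markers: 6 of 6 macrophage genes reached a TPM (the length-normalized abundance of a transcript or gene) of at least 1 in every library, with a summed TPM of 1037, 656.9 and 526.1 in replicates 1, 2 and 3. None of 4 T cell, 4 B cell, 4 neutrophil and 4 fibroblast markers did, and no such list summed to more than 0.58 TPM in any library. Of the 4 T cell markers 1, Cd3d, passed in the second transcript table, at 11.4 ± 6.96 TPM (SD, n = 3). There the neutrophil marker Mpo had a mean of 1.26 ± 0.41 TPM and the fibroblast marker Col1a1 1.16 ± 0.52 TPM, without passing in every library. In the gene table Col1a1 had 0, 19 and 30 estimated counts and Col1a2 0, 19 and 15 in replicates 1, 2 and 3. Values in CPM (counts normalized to library size) were scaled by TMM, a normalization that evens out differences in RNA composition.

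Tnfaip3 lies on the minus strand of chromosome 10 (chr10:19000910-19015657, mm10) and is annotated with 2 start sites whose coding transcripts run to the 3′ end. The 300 bases around these starts (250 before to 50 after, RefSeq, GRCm38.p6) are shown because the deposited tables differ in how they assign Tnfaip3 coding reads to them. Capitals mark matches on either strand to the NF-kB consensus (kB site).
Tnfaip3, start of Tnfaip3-201 (chr10:19015361-19015660, minus strand): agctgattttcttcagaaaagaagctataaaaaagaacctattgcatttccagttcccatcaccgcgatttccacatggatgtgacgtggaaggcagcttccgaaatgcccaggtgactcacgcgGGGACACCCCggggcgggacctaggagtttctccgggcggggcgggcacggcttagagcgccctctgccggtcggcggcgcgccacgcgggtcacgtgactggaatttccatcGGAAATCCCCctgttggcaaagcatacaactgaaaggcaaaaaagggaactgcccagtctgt
Tnfaip3, start of Tnfaip3-202 (chr10:19011914-19012213, minus strand): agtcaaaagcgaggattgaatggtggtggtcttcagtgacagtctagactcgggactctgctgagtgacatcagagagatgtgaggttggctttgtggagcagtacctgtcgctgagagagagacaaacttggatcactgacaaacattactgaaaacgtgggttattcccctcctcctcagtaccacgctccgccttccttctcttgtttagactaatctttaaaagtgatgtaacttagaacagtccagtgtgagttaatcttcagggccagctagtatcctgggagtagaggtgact
The upstream window held matches in 2 stretches, 125 to 116 and 12 to 3 bases before the start, and the window of Tnfaip3-202 held none. RefSeq windows were matched for 5 of the 7 genes, 7 windows in all, and 4 of those windows held a match. Of all 32851 mouse windows of this length 2779 held a match, which is 8.46%. The other matches were GGGGAATTCCCC, 58 to 47 bases before the Tnip1 start, GGAAAGTCCC, 155 to 146 bases before the Cyld start, and GGGGACTCCC, 34 to 43 bases after the second Tax1bp1 start. Neither the Tnip2 window nor the first Tax1bp1 window held a match, and no window was matched for Itch and Rnf11. A match is a run of letters, and no factor binding was measured.

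The second set of sequences shows examples of where annotated transcripts of these genes run on from a coding exon into an intron. Transcripts annotated as retained intron took a large share of the RNA. Those with the highest TPM in Tnfaip3, Itch and Tnip1 (Tnfaip3-206, Itch-204 and Tnip1-209) are not among the examples. Each sequence is from mm10 at the join, with 20 exon bases in lower case and 40 intron bases in capitals, read on the gene's strand.
Tnfaip3-205, intron of 699 bases kept whole (chr10:19004417-19004476, minus strand): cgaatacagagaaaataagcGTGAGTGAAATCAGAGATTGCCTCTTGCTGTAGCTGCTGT
Tnfaip3-205, intron of 1131 bases kept whole (chr10:19006823-19006882, minus strand): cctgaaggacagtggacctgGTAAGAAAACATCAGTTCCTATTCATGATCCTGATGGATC
Tnip2-206, first 251 bases of an intron (chr5:34503497-34503556, minus strand): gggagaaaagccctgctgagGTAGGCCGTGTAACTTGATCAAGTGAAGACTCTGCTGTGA
Tax1bp1-202, first 2075 bases of an intron (chr6:52729449-52729508, plus strand): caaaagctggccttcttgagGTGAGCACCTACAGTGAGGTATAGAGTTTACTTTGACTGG
Itch-205, first 3076 bases of an intron (chr2:155174052-155174111, plus strand): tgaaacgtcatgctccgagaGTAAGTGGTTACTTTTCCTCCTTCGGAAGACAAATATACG
Cyld-207, intron of 817 bases kept whole (chr8:88729819-88729878, plus strand): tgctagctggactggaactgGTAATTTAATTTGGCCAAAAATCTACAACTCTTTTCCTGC
Each of the 6 introns opens with GT, the usual first bases of an intron, so the capitals are sequence that splicing would remove.

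All 7 genes were detected, defined as a TPM of at least 1 in every library, against 24.4% of all annotated genes and 45.9% of protein-coding genes. They did not stand at a common level. Tax1bp1, Tnip2, Itch and Tnip1 lay between the 82.6th and the 89.5th percentile of the 10120 detected protein-coding genes, whose median was 11.8 TPM. Cyld and Tnfaip3 stood at the 71.7th and 69.5th percentile, and Rnf11 at the 34.9th. In RNA from many cells, fewer cells of a type and less RNA per cell cannot be told apart.

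Tnfaip3, the gene of A20, had 33.6, 19.0 and 12.6 TPM in replicates 1, 2 and 3, a mean of 21.7 ± 10.8 (SD, n = 3) from 1163, 982 and 637 estimated counts. Replicate 1 was the highest and replicate 3 the lowest, and the coefficient of variation of TPM, 49.7%, was the largest among the 7 genes. TPM also depends on effective length, which was 2438, 2894 and 2954 bases for Tnfaip3 in replicates 1, 2 and 3. In scaled CPM the highest library exceeded the lowest by 1.60-fold for Tnfaip3 and 1.61-fold for Tnip1. On the log2(TPM + 1) scale Tnfaip3 lay below the median of the other 6 genes by 0.67, 0.88 and 1.45 in replicates 1, 2 and 3, a mean difference of -0.997 ± 0.40 (SD, n = 3). In log2(CPM + 1), without length normalization, that mean difference was -0.30.

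Tnip1, which codes for ABIN-1, a partner that holds A20 on ubiquitin chains, had 50.3, 29.1 and 34.0 TPM in replicates 1, 2 and 3, a mean of 37.8 ± 11.1 (SD, n = 3). Tnip2, which codes for ABIN-2, a ubiquitin binder that also accompanies the kinase Tpl2, had 61.1, 47.9 and 49.5 TPM, a mean of 52.9 ± 7.20 (SD, n = 3). Tnip1 was lower than Tnip2 in 3 of 3 libraries, by 0.28, 0.70 and 0.53 on the log2 scale, a mean of -0.50 ± 0.21. Only 2 of 3 libraries went that way in the second transcript table, with 0.03, -0.39 and -0.17 in replicates 1, 2 and 3, a mean of -0.18 ± 0.21. The two-sided exact sign-flip test gave p = 0.25, the smallest it can give with 3 libraries, and 0.333 after Benjamini-Hochberg adjustment over 4 comparisons of gene pairs. No such comparison could therefore reach 0.05, and the size and the count of libraries carry the description.

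Tax1bp1, whose product links A20 to its substrates and also serves as an autophagy receptor, had 63.6, 53.2 and 49.3 TPM in replicates 1, 2 and 3, a mean of 55.4 ± 7.36 (SD, n = 3). It had the highest mean of the 7 genes. Against A20 itself, Tax1bp1 was higher than Tnfaip3 in 3 of 3 libraries, by 0.90, 1.44 and 1.89 on the log2 scale, a mean of 1.41 ± 0.50 (exact sign-flip p = 0.25, adjusted 0.333). Tax1bp1 was higher in 2 of 3 libraries of the second transcript table, with -0.02, 0.97 and 1.24 in replicates 1, 2 and 3, a mean of 0.73 ± 0.66.

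Itch, the HECT ligase, had 57.9, 43.6 and 38.1 TPM in replicates 1, 2 and 3, a mean of 46.5 ± 10.2 (SD, n = 3). Rnf11, the small RING protein that binds Itch-type ligases, had 6.99, 8.44 and 6.38 TPM, a mean of 7.27 ± 1.06 (SD, n = 3). The ranges of Itch and Rnf11 were far apart: Itch was higher in 3 of 3 libraries, by 2.88, 2.24 and 2.41 on the log2 scale, a mean of 2.51 ± 0.33 (exact sign-flip p = 0.25, adjusted 0.333). Of the 4 gene pairs this was the widest gap.

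Cyld, the other deubiquitinase, had 27.1, 24.2 and 20.1 TPM in replicates 1, 2 and 3, a mean of 23.8 ± 3.53 (SD, n = 3). Tnfaip3 and Cyld could not be ranked. Tnfaip3 minus Cyld was 0.30, -0.34 and -0.63 on the log2 scale in replicates 1, 2 and 3, a mean of -0.22 ± 0.48 (exact sign-flip p = 0.5, adjusted 0.5). The sign turned in the second transcript table, where the mean difference was 0.42.

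From high to low the mean TPM ran Tax1bp1, Tnip2, Itch, Tnip1, Cyld, Tnfaip3 and Rnf11. The ranges of neighbours in this order overlapped except at 2 steps, Tnip1 above Cyld (0.62 ± 0.32 on the log2 scale, in 3 of 3 libraries) and Tnfaip3 above Rnf11 (1.36 ± 0.66, in 3 of 3 libraries). Values of the second transcript table, summed per gene, were 1.80 times the gene table mean for Tnip1, 1.76 times for Tnfaip3 and 1.46 times for Tnip2, and its order ran Tnip2, Tnip1, Tax1bp1, Itch, Tnfaip3, Cyld and Rnf11. Rnf11 was lowest in both tables, whereas the other 6 positions moved. The step from Tnip1 to Cyld also depended on length normalization. In scaled CPM, without it, Cyld stood above Tnip1, with means of 89.3 and 42.2.

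**Figure D1:**
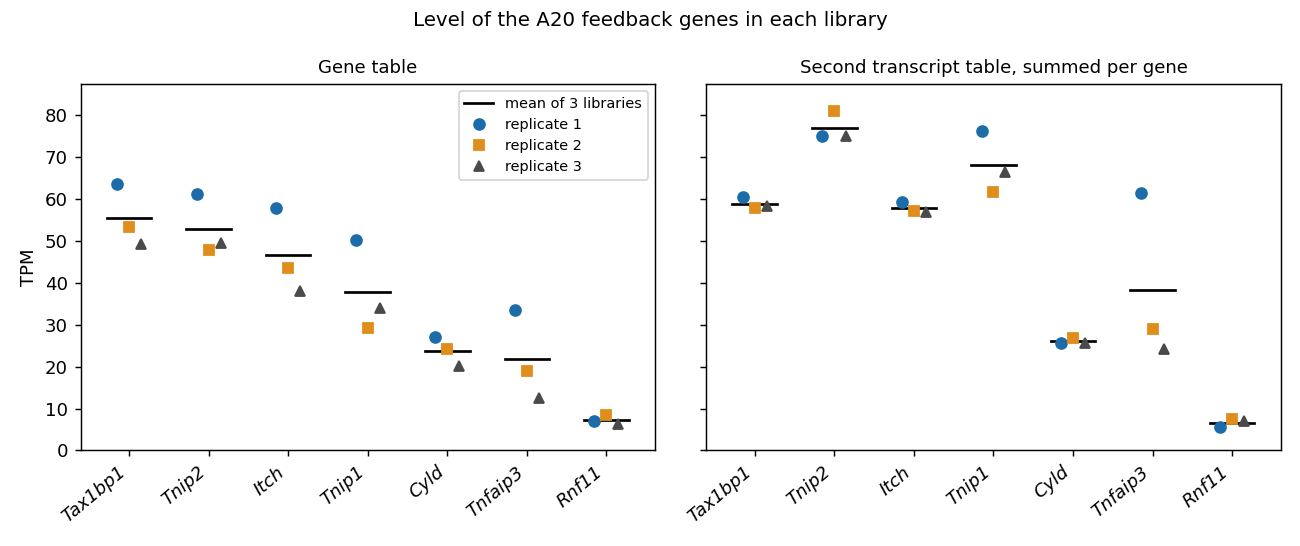
TPM of each gene in the libraries of replicates 1 (circles), 2 (squares) and 3 (triangles), with the mean of the 3 as a line, in the gene table (left) and summed from the second transcript table (right). In both panels Rnf11 is lowest, and Tnfaip3 is far higher in replicate 1 than in the other libraries.

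TPM was highest in replicate 1 for 6 of the 7 genes, all but Rnf11, against 63% of the 15871 genes with a mean of 10 or more counts. TPM depends on how much of a library short RNAs take up, and the TPM left after removal of genes with an effective length of 200 bases or less and of Gm26917, Gm42418 and Rmrp was 38.0%, 31.5% and 28.4% of the total in replicates 1, 2 and 3. With TPM rescaled to that remainder 3 of the 7 genes were highest in replicate 1, against 35.1% of the 15495 of these genes that remained. In scaled CPM, too, 3 of 7 genes were highest in replicate 1 (Tnfaip3, Tnip1 and Itch), against 36.6% of the 15871 genes.

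In scaled CPM, Tnfaip3 had 74.8, 57.7 and 46.9 in replicates 1, 2 and 3. Of the 7 genes 1, Tnfaip3, was lowest in replicate 3, against 29.1% of the same 15871 genes. Its log2 ratio of replicate 3 over the mean of the others was -0.49, below the range of -0.29 to 0.35 between the 5th and the 95th percentile of the 6191 genes with a mean of 300 or more counts. Its log2 ratio of replicate 1 over the others was 0.52, above the range of -0.46 to 0.49 for these genes.

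Tnip1, in scaled CPM, had 48.6, 30.2 and 47.9 in replicates 1, 2 and 3, so replicate 2 alone was low. Rnf11 had 18.7, 27.0 and 28.6 scaled CPM, so replicate 1 alone was low, and its log2 ratio of replicate 1 over the others was -0.57, below the same range, while that of replicate 3 over the others was 0.35, at the upper edge of its range. The highest library exceeded the lowest by 1.60-fold for Tnfaip3, 1.61-fold for Tnip1 and 1.53-fold for Rnf11. A fold of 1.5 or more was thus seen in 3 of 7 genes, against 10.8% of the 6191 genes. In the second transcript table, scaled in the same way, Tnfaip3 alone passed, with 81.2, 52.5 and 45.8 scaled CPM in replicates 1, 2 and 3 (1.77-fold), which is 1 of 7 genes against 14.3% of 9374 genes. There the fold was 1.40 for Tnip1 and 1.22 for Rnf11, so their spread depended on the table.

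The other 4 genes varied less. On the same scale Tax1bp1 had 160.6, 159.6 and 180 in replicates 1, 2 and 3, and Cyld had 84.8, 88.0 and 95.1. Tnip2 had 57.9, 55.7 and 62.0, and Itch had 130.5, 109.9 and 116.5. Their highest library exceeded the lowest by 1.11-fold to 1.19-fold, below the median of 1.23-fold over the 6191 genes.

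**Figure D2:**
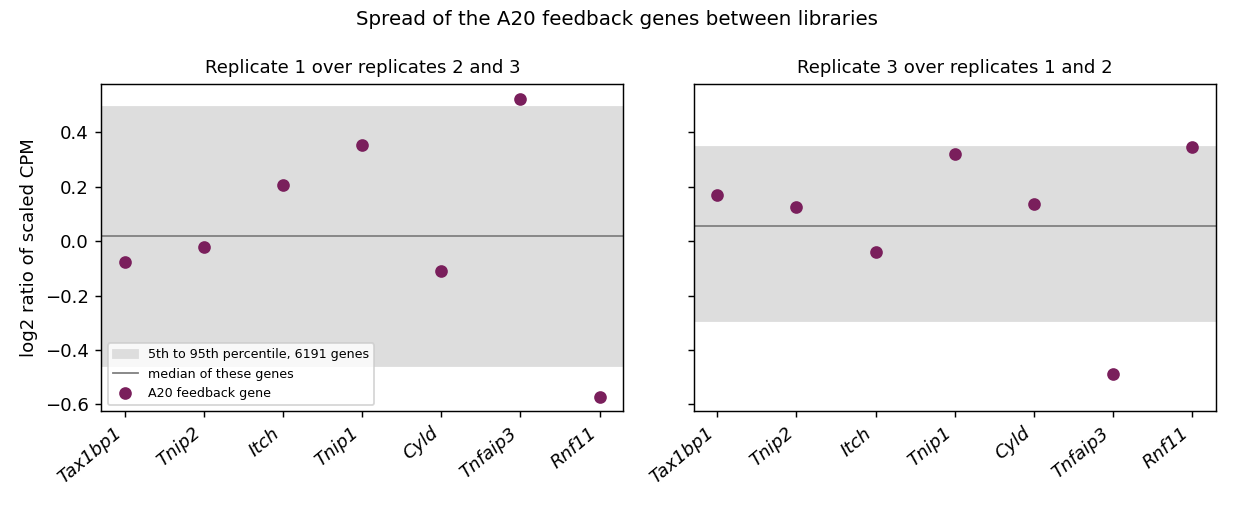
Log2 ratio of scaled CPM for each gene (points), for replicate 1 over the mean of replicates 2 and 3 (left) and replicate 3 over the mean of replicates 1 and 2 (right), with the median (line) and the 5th to 95th percentile (band) of 6191 genes. Tnfaip3 lies above the band at 0.52 on the left and below it at -0.49 on the right, and Rnf11 lies below it at -0.57 on the left.

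Macrophage marker RNA, as a sum, was highest in replicate 1 as well. Summed over the 6 markers it was 2329, 1617 and 1740 scaled CPM in replicates 1, 2 and 3. Csf1r, with the most counts of the 6, weighs most in this sum. Highest in replicate 1 were 5 of 6 markers, against 36.6% of the 15871 genes, and lowest in replicate 3 were 3 of 6, against 29.1%. The part of this in the Tnfaip3 values was not tested.

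Much of the RNA of these genes was assigned to transcripts annotated as retained intron, which keep intron sequence and are not annotated as coding. The shares below are percent of a gene's TPM in the first transcript table. Itch had the highest share on this scale, with 71.5%, 77.3% and 79.4% in replicates 1, 2 and 3, a mean of 76.1% ± 4.10 (SD, n = 3). Tnfaip3 had 66.1%, 71.2% and 53.8%, a mean of 63.7% ± 8.98. These were the 2 of 6 genes at 50% or more in every library, against 34.2% of the 6523 detected genes that have such a transcript. In the second transcript table Tnfaip3 had 36.9%, 57.6% and 45.0% and did not reach this limit, and the 2 genes that did were Itch and Tnip2, against 34.7% of 7393 genes. There the Itch share was 73.0% ± 2.82 and the Tnip2 share 69.0% ± 1.57 (SD, n = 3 each).

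Tnip2 followed with 53.9% ± 6.74, Tax1bp1 with 44.0% ± 2.26, Cyld with 35.1% ± 7.53 and Tnip1 with 30.4% ± 9.80 (SD, n = 3 each). Rnf11 has no transcript of this type. The median of the 6 genes was 49.2%, 45.9% and 49.4% in replicates 1, 2 and 3 (48.1% ± 1.99), and that of the 6523 genes was 44.8%, 49.3% and 45.9% (46.7% ± 2.31), so the median share of the 6 genes lay near the general one. The ranking depends on the scale. As a share of estimated counts Tnfaip3 was highest with 63.5% ± 9.10, followed by Itch with 57% ± 1.48 and Tax1bp1 with 47.9% ± 1.19. On that scale Tnip2 had 24.7% ± 4.95 and Tnip1, whose retained intron transcript is 442 bases long, had 6.43% ± 2.26 (SD, n = 3 each).

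**Figure D3:**
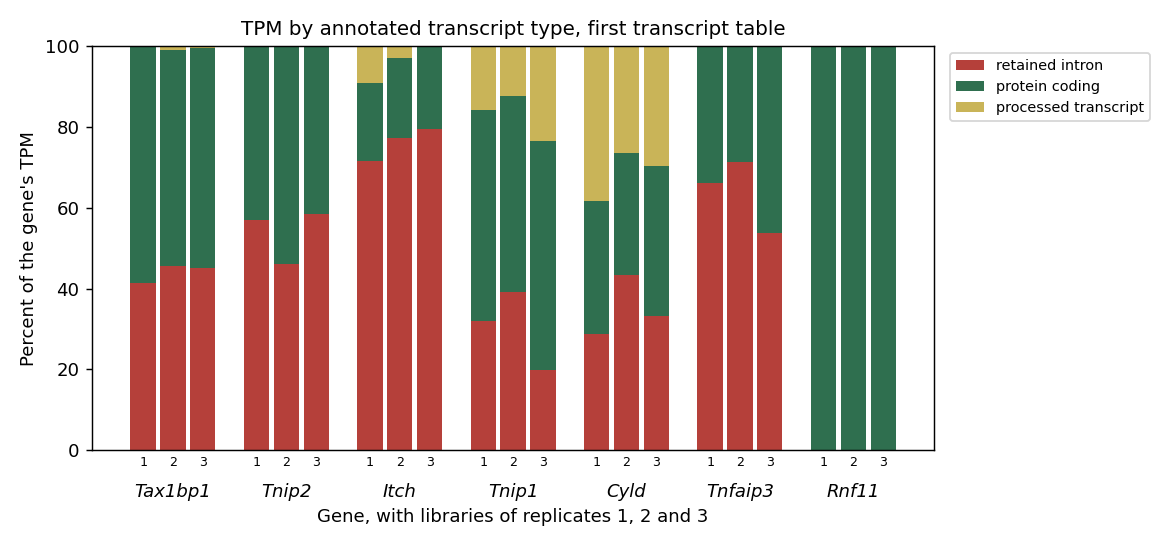
Percent of each gene's TPM in transcripts annotated as retained intron, protein coding and processed transcript (stacked bars), for the libraries of replicates 1, 2 and 3, first transcript table. Itch and Tnfaip3 exceed 50% retained intron in all 3 libraries, Cyld carries a large processed transcript share, and Rnf11 is coding only.

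Within Tnfaip3 the low value of replicate 3 was seen in the retained intron transcripts in both transcript tables. In scaled CPM these 2 transcripts together had 51.1, 39.9 and 24.8 in replicates 1, 2 and 3, while the 4 coding transcripts had 23.7, 17.8 and 22.0. Replicate 3 over the others was -0.86 on the log2 scale for the retained intron transcripts and 0.10 for the coding ones. In the second transcript table the retained intron transcripts had 48.8, 35.4 and 24.5 scaled CPM and the coding ones 32.4, 17.1 and 21.3. There the ratio was -0.76 for the retained intron transcripts, and for the coding ones it turned to -0.14. Retained intron transcripts were highest in replicate 1 and lowest in replicate 3 in both tables, and coding transcripts were highest in replicate 1 and lowest in replicate 2 in both. The split was chosen after the values of the gene had been seen.

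**Figure D4:**
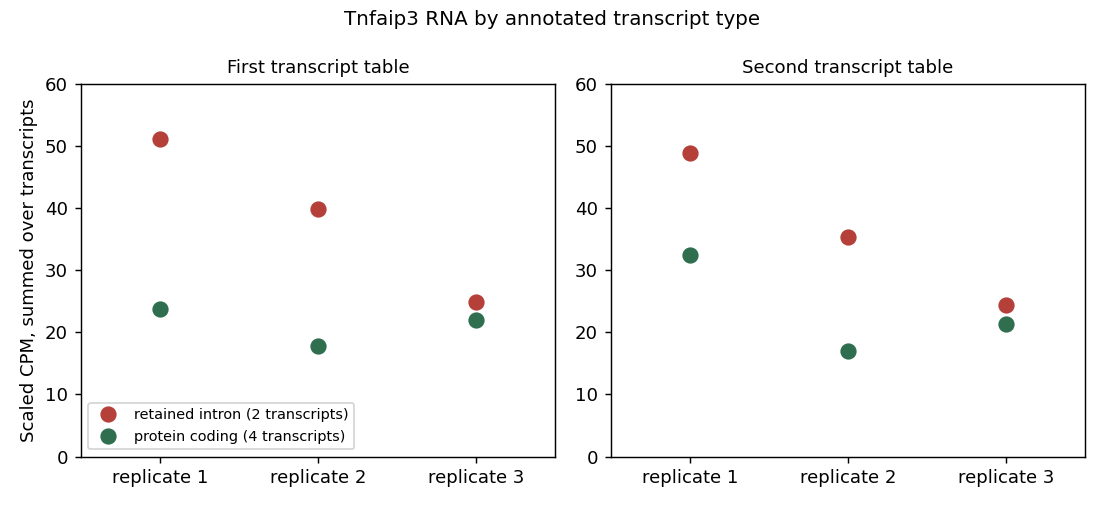
Scaled CPM of Tnfaip3 summed over its retained intron transcripts and over its coding transcripts, in the libraries of replicates 1, 2 and 3, in the first (left) and second (right) transcript table. Retained intron RNA is lowest in replicate 3, at 24.8 and 24.5, where it nears the coding RNA at 22.0 and 21.3.

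The longer retained intron form of Tnfaip3, Tnfaip3-205, spans nearly the whole gene, keeps both introns shown above and had 8.02, 5.68 and 2.95 TPM in replicates 1, 2 and 3. The shorter form, Tnfaip3-206, covers 764 bases in the middle of the gene and had 14.2, 7.84 and 3.81 TPM, from only 112, 73.7 and 35.2 estimated counts. Both were highest in replicate 1 and lowest in replicate 3.

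The coding RNA that reaches the 3′ end was assigned mostly to the downstream start. This holds for coding forms only. The retained intron form Tnfaip3-205 begins 1.91% into the gene, near the Tnfaip3-201 start at 1.68%, and ends 99.9% into it. Tnfaip3-205 had 682.2, 605.6 and 302.5 estimated counts in replicates 1, 2 and 3, against 348.8, 297.2 and 237.5 for Tnfaip3-202. In TPM it was above Tnfaip3-202 in replicates 1 and 2 but not in replicate 3. Tnfaip3-202, whose window held no kB match, had 5.95, 4.06 and 3.37 TPM in replicates 1, 2 and 3. Tnfaip3-201, which starts downstream of the kB matches, was listed at 0, 0 and 0.77 TPM. Their exons share 4161 bases, and the 173 bases that Tnfaip3-202 has to itself lie within an intron of Tnfaip3-201. Reads from an RNA that starts there and reads from unspliced RNA of the upstream start cannot be told apart on those bases. The deposited read-assignment SD was 18.8, 31.0 and 39.7 counts on 349, 297 and 238 counts for Tnfaip3-202. For Tnfaip3-201 it was 10.7, 29.8 and 41.8 counts on 0, 0 and 55.1 counts, so in replicate 3 the size of the Tnfaip3-201 share was unclear. In the second transcript table Tnfaip3-201 had 0.67, 0.81 and 1.44 TPM and Tnfaip3-202 had 4.73, 3.04 and 3.03 TPM.

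The tables differed most for Tnfaip3 in its short coding fragments. Tnfaip3-204, 456 bases long, had 5.43, 1.40 and 1.67 TPM in the first table and 23.8, 8.49 and 8.83 TPM in the second. Tnfaip3-203 was listed at 0 in the first table and had 9.52, 0 and 0 TPM in the second. Levels of single short transcripts therefore depended on the table.

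In the long genes part of the RNA was assigned to transcripts annotated to end early. Reads from unspliced RNA of the whole gene may also be assigned to retained intron forms, which was not tested. Itch spans 93347 bases (chr2:155133509-155226855, plus strand). Its transcript with the highest mean TPM, the retained intron form Itch-204, ends 6.19% into the gene. Itch-204 had 14.4, 16.8 and 16.0 TPM in replicates 1, 2 and 3, against 11.2, 8.57 and 6.77 TPM for the full-length coding Itch-201. In TPM Itch-204 was above Itch-201 in 3 of 3 libraries, with the narrowest gap in replicate 1. In estimated counts Itch-204 was below, with 196.8, 280.1 and 260.2 against 790, 753.7 and 573.1 for Itch-201.

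Cyld spans 54918 bases (chr8:88697028-88751945, plus strand). Its transcript with the highest mean TPM was the processed transcript Cyld-208, which ends 35.2% into the gene. Cyld-208 had 10.4, 6.42 and 5.96 TPM in replicates 1, 2 and 3. In the first table the most abundant coding form, Cyld-203, had 4.65, 4.50 and 4.73 TPM. In the second transcript table Cyld-208 had 8.98, 5.28 and 6.24 TPM, whereas Cyld-203 had 1.04, 1.53 and 1.41 TPM, with lower mean TPM than Cyld-204, Cyld-210 and Cyld-201. In TPM Cyld-208 was above Cyld-203 in 3 of 3 libraries of both tables, and the leading coding form depended on the table. In estimated counts of the first table Cyld-208 was below, with 187, 142.2 and 128 against 510.7, 620.6 and 626.4 for Cyld-203.

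Tax1bp1 spans 53052 bases (chr6:52713729-52766780, plus strand), and here the full-length coding form led. Tax1bp1-201 had 28.1, 24.4 and 23.8 TPM in replicates 1, 2 and 3. The retained intron form Tax1bp1-202, which ends 33.6% into the gene, had 14.6, 13.8 and 13.4 TPM. Tax1bp1-206, retained intron near the 3′ end, had 11.8, 10.5 and 8.82 TPM, so reads were assigned to retained intron forms in an early and in a late stretch of the gene.

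Tnip2 (chr5:34496087-34513991, minus strand) was led in the first transcript table by the full-length coding Tnip2-202 with 25.6, 19.5 and 17.5 TPM in replicates 1, 2 and 3. Its retained intron form Tnip2-206, which starts near the 5′ end and ends 59.8% into the gene, had 22.0, 12.0 and 12.7 TPM. In the second table Tnip2-206 was above Tnip2-202 in 3 of 3 libraries. Tnip1 (chr11:54910785-54962917, minus strand) had 12 annotated transcripts, led in the first table by the retained intron fragment Tnip1-209 with 16.1, 11.4 and 6.74 TPM and the full-length coding Tnip1-205 with 13.3, 5.18 and 9.22 TPM. Neither led in all 3 libraries there, while Tnip1-209 led in all 3 in the second table with 27.8, 24.2 and 18.4 TPM. Tnip1-209 is 442 bases long. In the first table it rested on 54.3, 42.2 and 25.4 estimated counts, against 461.3, 222.7 and 382.3 for Tnip1-205. Rnf11 (chr4:109451098-109484728, minus strand) had 3.93, 5.34 and 5.53 TPM in its longest form, Rnf11-201.

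Intron reads outside the listed transcripts would not be counted, and the listed exons of all forms covered 49.0% of the Tnfaip3 span, but 22.9% of Cyld, 18.8% of Tax1bp1, 15% of Tnip2, 12.7% of Rnf11, 10.4% of Itch and 6.79% of Tnip1. No source used here states whether counting used strand. Tnip1, Tax1bp1, Cyld and Itch hold annotated genes on the opposite strand, such as Gm12230 at 12.4 TPM within Tnip1, and their reads may not be told apart. Tnfaip3, Tnip2 and Rnf11 overlap no other gene.

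The nearest protein-coding genes to Tnfaip3 in pattern, by the largest difference of log2(TPM + 1) in any of the 3 libraries among 10120 genes, were Rps27 at 0.09, Tbc1d8 at 0.10 and Adck5 at 0.11. Rps27 had 35.5, 19.2 and 11.8 TPM in replicates 1, 2 and 3. With 3 libraries of 1 group such likeness is a description of level and spread.

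The wider ubiquitin machinery was also present, described on the TPM scale by counts of detected genes, medians and extremes. The median of the 7 A20 feedback genes was 37.8 ± 11.1 TPM (SD, n = 3), beside 11.8 TPM over all detected protein-coding genes. Of the linear ubiquitin genes 5 of 5 were detected, with a median of 33.0 ± 12.5 TPM. The highest was Rbck1, which codes for a subunit of the linear chain ligase, at 45.6 ± 18.2 TPM. The lowest was Spata2, which codes for the bridge between CYLD and that ligase, at 8.65 ± 2.37 TPM.

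Among other A20-type OTU deubiquitinases 2 of 3 were detected. Zranb1, a chain-trimming enzyme of this family, was highest in the gene table at 19.5 ± 2.10 TPM, below Tnfaip3 in replicate 1 alone. It had 23.6 ± 2.12 TPM in the second transcript table, below Otud7b at 31.9 ± 3.16 TPM. Otud7a was listed at 0 in all 3 libraries, which allows up to 3 counts or 0.191, 0.187 and 0.209 CPM by counting error alone, yet had 47.4 ± 11.9 TPM in the second transcript table. Its level is therefore uncertain.

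Of the UBAN relatives, which share the ubiquitin-binding stretch of the ABIN proteins, 3 of 3 were detected with a median of 22.7 ± 2.62 TPM. Optn, which codes for optineurin, was highest in the gene table at 29.5 ± 1.498 TPM. In the second transcript table Ikbkg, at 43.4 ± 4.195 TPM, was above Optn at 39.6 ± 3.35 TPM. Tnip3, which codes for ABIN-3, was lowest at 15.4 ± 4.61 TPM in the gene table. ABIN-3 RNA thus had the lowest mean of the ABIN genes, beside 37.8 TPM for Tnip1 and 52.9 TPM for Tnip2. Of the ubiquitin-binding autophagy receptors 4 of 5 were detected, with Nbr1 highest at 102.4 ± 7.94 TPM. The receptor that was not detected was Calcoco2, with 1 estimated count in 3 libraries.

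Of the Nedd4 family ligases and adaptors, relatives and activators of Itch, 7 of 10 were detected. Wwp1, a HECT ligase close to Itch, was highest at 152.9 ± 19.4 TPM, and Hecw1, another HECT ligase, was listed at 0 in all 3 libraries. The A20 substrates and their partners were all detected, 12 of 12, with a median of 29.8 ± 3.61 TPM. In the gene table they ranged from Ube2d3, a ubiquitin-conjugating enzyme, at 77.8 ± 20.3 TPM to Ripk2, the kinase of the NOD receptors, at 3.36 ± 0.656 TPM. In the second transcript table Birc3, at 87.03 ± 24.35 TPM, was above Ube2d3 at 79.94 ± 7.09 TPM.

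**Figure D5:**
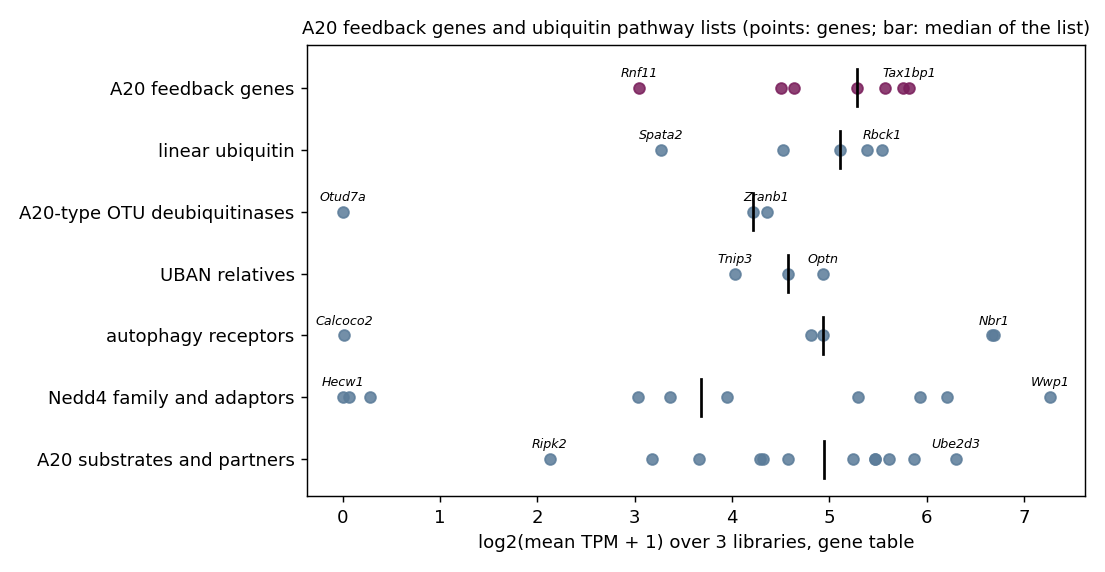
Log2(mean TPM + 1) over the 3 libraries for each gene (points) of the A20 feedback genes and 6 ubiquitin lists, with the median of each list (bar) and its highest and lowest gene named. The A20 feedback genes run from Rnf11 to Tax1bp1, and points at 0 are genes with no or almost no counts in the gene table.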

How the data were processed

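Total RNA of the chromatin fraction was sequenced in 3 libraries of 1 group. The authors deposited, per library, a gene table and a first transcript table with an estimated count, TPM, effective length and read-assignment SD, derived from transcriptome alignments (mm10, GENCODE M21, per the deposited readme files), and a second transcript table with estimated counts and TPM, built straight from reads and a transcript index. The sources used here name no program or version for these steps. Entries that named no annotated gene held 1.16%, 0.459% and 0.351% of the counts and were left out.

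Estimated counts were rounded and scaled to CPM by TMM over genes with a mean of 10 or more counts (edgeR 4.0.16, R 4.3.3), checked on simulated data, with DESeq2 1.42.0 size factors as an alternative. Gene pairs were compared per library as log2(TPM + 1) with a pseudocount of 1, which understates folds of low genes, by exact sign-flip tests. The 7 genes and all lists were chosen with earlier results of these data known. All 7 genes were named, with the highest and lowest gene of each list and the 3 genes nearest to Tnfaip3. Counts without molecular identifiers are not independent molecules, so limits cover counting error only.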

Additional observations from a re-analysis of the deposited data

How the results depend on the processing

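Of the 4 gene pairs, 3 kept the direction of their mean in the second transcript table and in log2(CPM + 1). These were Tnip1 minus Tnip2, Itch minus Rnf11 and Tax1bp1 minus Tnfaip3. Each had the same sign in 3 of 3 libraries of the gene table. A pseudocount of 0.1 or leaving out a replicate therefore could not turn their direction, and those settings bear on size only. In the second table Tnip1 minus Tnip2 was -0.18 and Tax1bp1 minus Tnfaip3 0.73, each with replicate 1 in the other direction. Without each replicate in turn the 3 pairs ran from -0.61 to -0.40, from 2.32 to 2.64 and from 1.17 to 1.67. Tnfaip3 minus Cyld ran from -0.49 to -0.02 without each replicate in turn, and reversed to 0.42 in the second transcript table. Tnfaip3 minus the median of the other 6 genes moved to -0.30 in log2(CPM + 1), which drops the length normalization. The median retained intron share moved to 41.4% in the second transcript table and 38.9% as a share of estimated counts. The Tnfaip3 coding transcripts reversed to -0.14 for replicate 3 over the others in the second transcript table, an alternative chosen after seeing the data. The cause of these changes was not tested. All 7 genes stayed detected at a TPM of 5 and in the second table. Highest in replicate 1 were 3 genes under DESeq2 size factors, library totals and no filter, and 4 in the second table. The shares of all genes under these settings are not given here, so these counts were not set against a background. Of the genes with a fold of 1.5 or more between libraries, 1 of 3 was left in the second table, also tried after seeing the data. Rescaled TPM raised every level, Tnfaip3 to 64.4 against 21.7 TPM and Tax1bp1 to 170.1 against 55.4 TPM, and kept the order of the means. Rescaling divides all genes of a library by 1 value, so the rise and the order within each library were fixed in advance. In the second table the levels of 4 of 7 genes moved (Tnfaip3, Tnip1, Tnip2 and Itch). No paired analysis was possible because the libraries form a single group. With 3 libraries no exact test can go below 0.25, and among the 7 genes Rnf11 had the fewest counts, 291 to 460, while single short transcripts rest on fewer.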
